A study of Mus musculus with 10 samples.

Results

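The transcripts of 9 regulators of tubule energy metabolism were followed in mouse kidney, 7 nuclear receptors (Ppara, Ppard, Pparg, Esrra, Esrrb, Esrrg and Hnf4a) and the 2 coactivators Ppargc1a and Ppargc1b. They were taken by name, with no threshold on any value, and all 9 had a row among the 30431 rows of each of the authors' deposited tables. The RNA came from whole kidneys of 10 mice aged 21 days after birth. The wild-type group (WT) had 4 animals, and no further allele is given for it. The group with Pkhd1Cre and homozygous floxed Pkd2, a gene for polycystin-2 whose loss causes polycystic kidney disease, had 3 animals (SM), and the group with the same alleles and a miR-21 null genotype had 3 (DM). Pkhd1Cre is known to act mainly in the collecting duct, so most tubule segments of the SM and DM kidneys are not its chief target. The question was how these transcripts differ with loss of Pkd2, and how they differ further when miR-21 is also absent.

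Nuclear receptors are transcription factors whose activity depends on ligands or on coactivators. PPAR-alpha, the product of Ppara, senses fatty acids and turns on their oxidation, which is the main fuel route of the proximal tubule. The estrogen-related receptors (Esrra, Esrrb, Esrrg) have no known natural hormone and depend on the coactivators PGC-1-alpha (Ppargc1a) and PGC-1-beta (Ppargc1b) to drive genes of the respiratory chain and the citric acid cycle. HNF4-alpha (Hnf4a) maintains the differentiated state of proximal tubule and liver cells. Ppara has been reported as a target of miR-21 in kidney, which is why the comparison of DM with SM bears on it.

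Since the DM group lacks miR-21, the words that pair with its seed were looked for in the annotated 3′ UTRs of the members. The mature miRNA is shown with its seed (bases 2 to 8) in capitals (RefSeq, GRCm38.p6, chromosome 11, 86584120 to 86584141, minus strand), and the target words are shown in capitals within 30 bases of each UTR (GENCODE M21 transcripts).
mmu-miR-21a-5p: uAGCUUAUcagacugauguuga
Ppara: tcgagaatagtttgATAAGCTAtcccatca
Ppargc1a: tagcccatcaaaatATAAGCTgtaagcttt
Hnf4a: ttactcttctgattATAAGCTgaggatgct
Ppara held the full 8-base word (chromosome 15, 85801829 to 85801836, plus strand), which pairs with the seed and has an A opposite the first base of the miRNA. Ppargc1a (chromosome 5, 51455057 to 51455063, minus strand) and Hnf4a (chromosome 2, 163572387 to 163572393, plus strand) each held the 7-base word ATAAGCT. The other 6 members held neither of these words in the UTRs read, nor TAAGCTA, the 7-base form with the terminal A, which shows nothing beyond these windows. Among 12825 genes that averaged 1 CPM or more (CPM, the read count scaled to library size), 12.7 percent held any of the 3 words in their longest annotated 3′ UTR. The word ATAAGCT, with or without an A after it, was in 8.12 percent. For the members the UTRs of all annotated coding transcripts were read, a wider search, so the shares are not strictly alike. A match is a description of the sequence and not evidence of binding.

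Group levels in CPM were derived from the average level and the fold changes in the authors' deposited tables. Every standard error (SE) is the one implied by the authors' likelihood ratio test on the log2 scale, and a range in parentheses beside a level spans 1 SE on either side. Values per animal were not analysed here, so overlap between animals cannot be stated, and the sequencing depth is unknown. Whole kidney was the labelled tissue. The proximal tubule transporter Slc34a1 stood at 5030 CPM and Umod, the marker of the thick ascending limb, at 3553 CPM in WT. Pkd2 itself, the deleted gene, had 239 CPM in WT, 180 in SM and 170 in DM, with log2 fold changes of -0.41 (SE 0.20, adjusted p = 0.179) and -0.49 (SE 0.20, adjusted p = 0.0838) versus WT in the authors' deposited tables. The row named Mir21 stood at the lowest listed level with a fold change of 0.00 in each deposited table of the authors, so it does not check the miR-21 genotype. In such bulk samples fewer cells of a type and less RNA per cell cannot be told apart.

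Per kilobase of the longest annotated coding transcript, Hnf4a was the most abundant of the 9 in WT at 180 CPM per kilobase (160 to 203). Esrra followed at 65.6 and Ppara at 50.7 CPM per kilobase. Ppargc1a (28.3), Esrrg (24.0), Esrrb (20.6) and Ppard (15.1) came next in CPM per kilobase, and each neighbour in this run of genes overlapped the next within 1 SE. Ppargc1b at 8.75 and Pparg at 5.22 CPM per kilobase were the lowest. The lengths are those of the annotation, and the transcript models the authors counted on may differ from them.

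**Figure D1:**
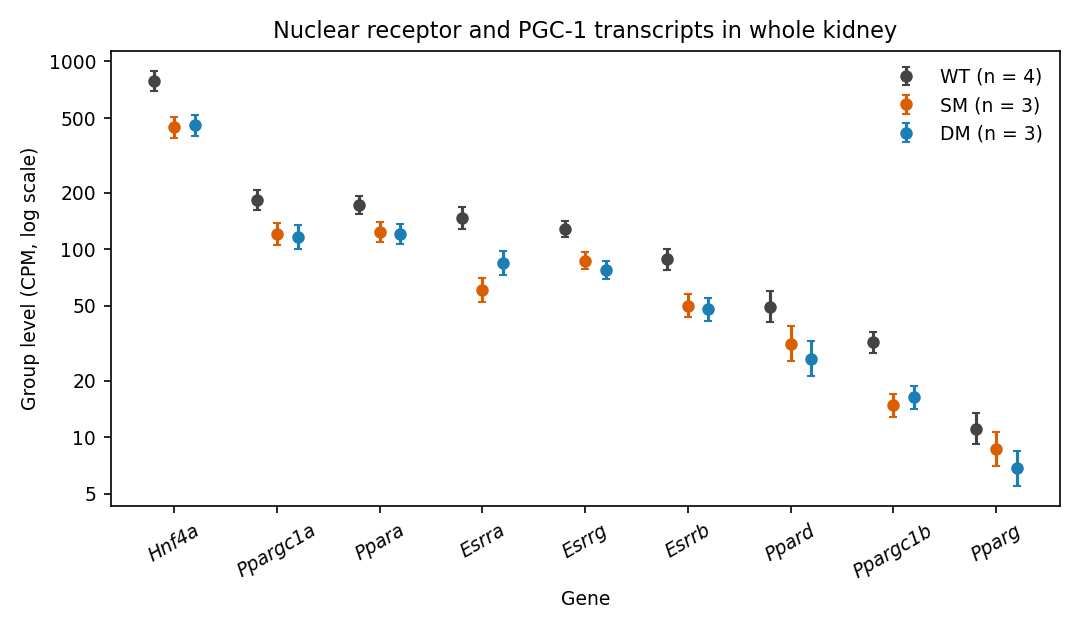
Group level of each gene in CPM (log axis) for WT (4 animals), SM (3) and DM (3), with bars of 1 SE on either side. In 8 of the 9 genes the bars of SM and DM lie below the bar of WT without touching it, and for Pparg the SM bar (7.02 to 10.7 CPM) overlaps the WT bar (9.23 to 13.4 CPM).

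The members lie on 9 chromosomes and each is annotated as a protein-coding gene (GENCODE M21 on GRCm38, the assembly that mm10 names). Hnf4a is on chromosome 2 (163506808 to 163572910), Ppara on chromosome 15 (85734983 to 85802819), Ppard on chromosome 17 (28232700 to 28301474) and Pparg on chromosome 6 (115360951 to 115490399). Esrra is on chromosome 19 (6910977 to 6921813), Esrrb on chromosome 12 (86361117 to 86521628) and Esrrg on chromosome 1 (187608791 to 188214885). Ppargc1a is on chromosome 5 (51454250 to 51567726) and Ppargc1b on chromosome 18 (61298136 to 61400431). Esrra shares 73 exonic bases with Trmt112 on the opposite strand, and the sources used here do not say whether the authors' counting used strand. No other member shared exonic bases with another protein-coding gene in that annotation.

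Loss of Pkd2 was accompanied by lower transcripts of all 3 estrogen-related receptors, of PGC-1-beta and of HNF4-alpha. Of the 9 members 5 fell in SM versus WT at an adjusted p below 0.05 in the authors' deposited table and 0 rose, where 6.09 percent of all rows were called lower and 7.87 percent higher. Among the 15135 rows with at least 1 CPM, 9.47 percent were called lower. At an unadjusted p below 0.05 the count of members was 7, beside 33.0 percent of those rows. All 9 log2 fold changes were below 0, as were 51.1 percent of the rows with at least 1 CPM. Their median was -0.66, and that of the rows with at least 1 CPM was -0.01. The 5 that passed in DM versus WT were the same genes, and that comparison shares the WT animals. All 5 SM calls were lost when the likelihood ratio was read against an F distribution with 1 and 7 degrees of freedom, which takes the spread as known only from these 10 libraries. Their adjusted p-values then ranged from 0.0764 (Esrra) to 0.217 (Esrrg), and the calls over all rows went from 4248 to 682, so that reading is strict for the whole table.

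Esrra, which encodes the estrogen-related receptor of most adult oxidative tissues, stood at 147 CPM in WT (128 to 168), 60.7 CPM in SM (52.3 to 70.5) and 84.9 CPM in DM (73.4 to 98.1). It had the lowest level relative to WT of the 9 in SM, and its DM level lay between those of SM and WT. Its log2 fold change in the authors' deposited table of SM versus WT was -1.28 (SE 0.29, adjusted p = 0.000274). For DM versus WT the authors' deposited table gave -0.79 (SE 0.29, adjusted p = 0.0428).

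Esrrb is known from pluripotent cells and from ion-transporting epithelia. Its level was 88.4 CPM in WT (77.8 to 100), 50 in SM (43.5 to 57.6) and 48.0 in DM (41.7 to 55.2). SM and DM overlapped each other and lay below WT. The authors' deposited tables gave -0.82 (SE 0.27, adjusted p = 0.024) in SM versus WT and -0.88 (SE 0.27, adjusted p = 0.0139) in DM versus WT.

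Esrrg, the family member known for mitochondrial genes in heart and distal tubule, stood at 129 CPM in WT (117 to 142), 87.0 in SM (78.2 to 96.9) and 77.9 in DM (69.9 to 86.7). It had the smallest SE of the 9 genes. Its log2 fold change was -0.56 (SE 0.21, adjusted p = 0.048) in SM versus WT and -0.72 (SE 0.21, adjusted p = 0.00657) in DM versus WT, in the authors' deposited tables. The SM value passed narrowly, since a change of 0.56 was the size needed at its SE. It had adjusted p = 0.0539 once all fold changes were centred on the median row.

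Of the coactivators, Ppargc1b passed and Ppargc1a did not. Ppargc1b stood at 32.0 CPM in WT (28.2 to 36.3), 14.8 in SM (12.8 to 17.0) and 16.3 in DM (14.2 to 18.7). It fell in both, with log2 fold changes of -1.12 (SE 0.27, adjusted p = 0.000914) in SM and -0.97 (SE 0.27, adjusted p = 0.00499) in DM versus WT by the authors' deposited tables. Ppargc1a, the cold- and fasting-inducible coactivator, had the higher level of the pair, at 183 CPM in WT (161 to 207), 120 in SM (105 to 138) and 116 in DM (101 to 134). The authors' deposited tables gave it -0.60 (SE 0.27, 95% interval -1.13 to -0.07, adjusted p = 0.134) in SM and -0.65 (SE 0.27, 95% interval -1.18 to -0.12, adjusted p = 0.0969) in DM versus WT. Neither value passed, a change of 0.73 being needed, and the difference between the coactivators was not tested.

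Hnf4a, the receptor that keeps proximal tubule cells differentiated, stood at 786 CPM in WT (698 to 885), 446 in SM (391 to 508) and 457 in DM (401 to 521). Both mutant groups were at nearly the same level, below WT. Its log2 fold change in the authors' deposited tables was -0.82 (SE 0.26, adjusted p = 0.0136) in SM and -0.78 (SE 0.25, adjusted p = 0.0206) in DM versus WT. Hnf4a and Ppara are also liver genes. Of 25 hepatocyte markers 17 fell and 3 rose in SM versus WT and 18 fell and 4 rose in DM versus WT in the authors' deposited tables, and albumin (Alb) had 132 CPM in WT (57.8 to 303), 0.328 in SM and 1.03 in DM. The shares that fell were 68 and 72 percent, and the shares that rose were 12 and 16 percent. Over all rows 6.09 and 5.92 percent were called lower, and 7.87 and 7.55 percent higher. The markers Fgg and Fga went the other way from Alb. Fgg had 6.98 CPM in WT, 43.1 in SM and 45.1 in DM, and Fga had 27.8, 103 and 106 CPM. The implied coefficient of variation was 135 percent for Alb and 23.1 percent for Hnf4a. At least 1 CPM was reached by 24 of the 25 in WT, 10 in SM and 11 in DM. The summed level was 515, 701 and 663 CPM, to which complement C3 added 41.1, 362 and 361 CPM. The part of these markers in the result was not tested.

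None of the 3 PPAR genes passed. Ppara stood at 173 CPM in WT (155 to 193), 124 in SM (109 to 140) and 121 in DM (107 to 137). Its log2 fold change was -0.48 (SE 0.24, 95% interval -0.95 to -0.01, adjusted p = 0.195) in SM and -0.52 (SE 0.24, 95% interval -0.99 to -0.05, adjusted p = 0.153) in DM versus WT, in the authors' deposited tables, where 0.65 was needed to pass. As ratios to WT the intervals run from 0.517 to 0.991 in SM and from 0.504 to 0.967 in DM, so the data do not show that Ppara was unaltered.

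Ppard, the broadly expressed member of the family, had 49.5 CPM in WT (40.8 to 60.2), 31.4 in SM (25.3 to 38.9) and 26.2 in DM (21.1 to 32.5). In the authors' deposited tables it had -0.66 (SE 0.42, adjusted p = 0.37) in SM and -0.92 (SE 0.42, adjusted p = 0.145) in DM versus WT. Its DM value was larger in size than those of Esrra, Esrrb, Esrrg and Hnf4a, which passed with smaller errors. The coefficient of variation implied by its SE was 37.9 percent, a value from the authors' fit that need not be its spread between these animals. It was above that of 98.7 percent of the 3503 rows within 1.5-fold of its average level, whose median was 18.9 percent. By the same measure Esrra lay above 93.4 percent of rows near its own level, Pparg above 93, Esrrb 91.3, Ppargc1a 88.7 and Ppargc1b 84.8. Ppara lay above 75.6 percent, Esrrg above 54.8 and Hnf4a above 35.4.

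Pparg, the receptor that drives fat cell formation, was the least abundant member, with 11.1 CPM in WT (9.23 to 13.4), 8.65 in SM (7.02 to 10.7) and 6.82 in DM (5.52 to 8.42). The authors' deposited tables gave -0.36 (SE 0.40, adjusted p = 0.717) in SM and -0.70 (SE 0.40, adjusted p = 0.301) in DM versus WT. An observed change of 1.09 would have been needed to pass in SM, so an observed log2 change of 1 in Pparg would not have passed at this precision. Its implied coefficient of variation was 36.5 percent. Of 10 fat cell markers, 5 of which are also in the PPAR-gamma list, 1 fell in SM and 0 in DM in the authors' deposited tables, with summed levels of 768, 521 and 483 CPM. These shares of 10 and 0 percent are not above the background by more than a little. Of rows with at least 1 CPM, 9.47 and 8.53 percent were called lower, so the count is no result about fat cells. Adipoq, a fat cell hormone gene, had 17.8 CPM in WT, 11.2 in SM and 11.7 in DM, with an SE of 0.91 in SM versus WT. Lep went the other way, with 1.72 CPM in WT, 3.81 in SM and 4.24 in DM, and 0 of the 10 markers were called higher. Macrophage markers, of cells that also express Pparg and Ppard, rose for 14 of 14 genes in SM and 13 of 14 in DM versus WT in the authors' deposited tables, with summed levels of 157 CPM in WT, 596 in SM and 608 in DM. The macrophage shares of 100 and 92.9 percent stand beside 7.87 and 7.55 percent of all rows called higher. The part of the fat cell and macrophage markers in these values was not tested.

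**Figure D2:**
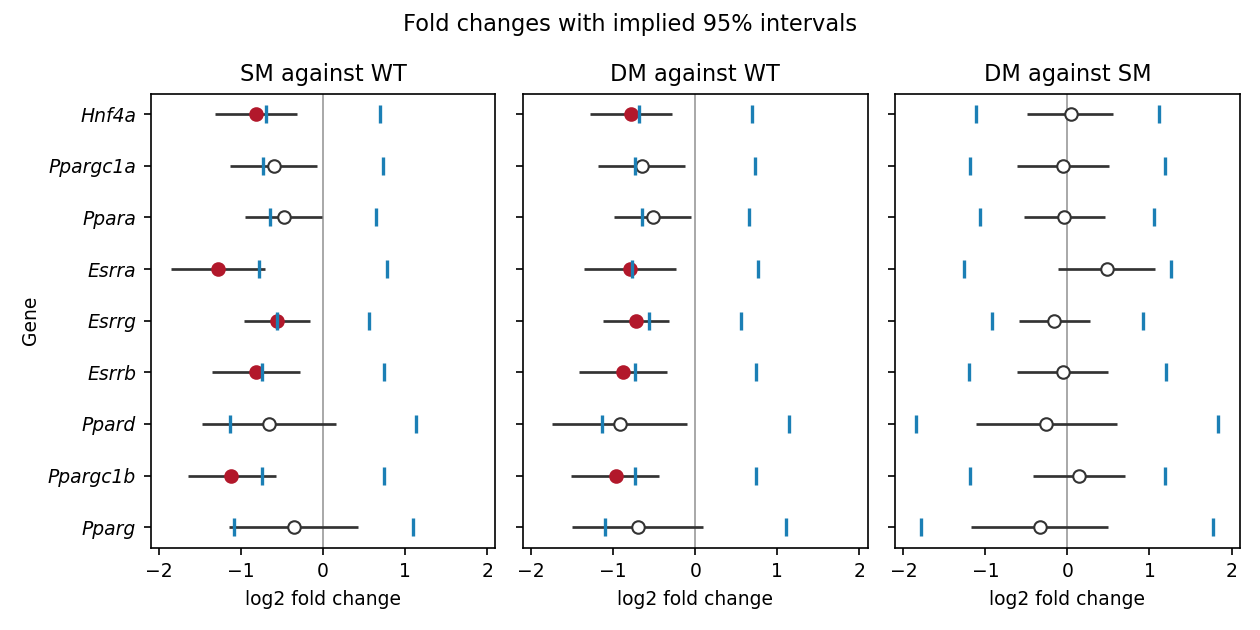
Log2 fold change of each gene (points) with its implied 95% interval (lines) in the 3 comparisons, filled where the authors' adjusted p was below 0.05. Blue ticks mark the size that would have been needed to pass, and 5 genes lie beyond the tick in each comparison with WT, against 0 in DM versus SM.

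Against WT, 5 of the 9 members fell in DM and 0 rose in the authors' deposited table, where 5.92 percent of all rows were called lower and 7.55 percent higher, and 8.53 percent of rows with at least 1 CPM lower. All 9 had a log2 fold change below 0, as did 49.8 percent of rows with at least 1 CPM, and 8 had an unadjusted p below 0.05, as did 31.4 percent of those rows. The median log2 fold change of the 9 was -0.78, against 0.00 for the rows with at least 1 CPM. With the F distribution 0 of these 5 calls held, and the adjusted p-values of the 5 ranged from 0.127 (Ppargc1b) to 0.213 (Esrra), where the calls over all rows went from 4100 to 451.

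Absence of miR-21 on top of the Pkd2 deletion was not accompanied by a detectable difference in any of the 9 transcripts. The authors' deposited table of DM versus SM, from edgeR's likelihood ratio test, called 0 of the 9 members, where 0.0789 percent of all rows and 0.0859 percent of rows with at least 1 CPM were called in either direction. The count at an unadjusted p below 0.05 was 0 as well, and 0 passed under each of the 5 alternatives tried. Of rows with at least 1 CPM, 3.01 percent had such a p. The log2 fold changes of 6 members were below 0, beside 49.6 percent of those rows, and the median of the 9 was -0.05.

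The 3 members with a miR-21 word had fold changes close to 0. Ppara, with the 8-base word, stood at -0.04 (SE 0.25) in the authors' deposited table of DM versus SM, a ratio of 0.976 with a 95% interval of 0.692 to 1.38. Ppargc1a was at -0.05 (SE 0.29), a ratio of 0.968 with an interval of 0.657 to 1.43, in the authors' deposited table. Hnf4a was at 0.04 (SE 0.27), a ratio of 1.03 with an interval of 0.714 to 1.48, in the authors' deposited table. The upper bound for Ppara therefore lies at a level 1.38 times that of SM, and a smaller rise is within the error. A log2 change of 1.06 would have been needed for Ppara to pass.

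Esrra had the largest difference of the 9 between DM and SM. The authors' deposited table put it 0.48 higher in DM (SE 0.30, 95% interval -0.11 to 1.07, unadjusted p = 0.109, adjusted p = 1). Pparg stood at -0.34 (SE 0.43), Ppard at -0.26 (SE 0.44), Esrrg at -0.16 (SE 0.22), Ppargc1b at 0.14 (SE 0.29) and Esrrb at -0.06 (SE 0.29) in the same deposited table by the authors. Each of these 95% intervals includes 0. The widest is that of Ppard, whose ratio of DM to SM of 0.834 has an interval of 0.459 to 1.52.

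Some of the receptors' partners and other nuclear receptors also fell. Of 28 such genes 6 fell in SM versus WT and 8 in DM versus WT, and 0 rose, in the authors' deposited tables (medians -0.29 and -0.36). These shares of 21.4 and 28.6 percent stand beside 9.47 and 8.53 percent of rows with at least 1 CPM called lower. Rxra, the retinoid X receptor with which the PPARs pair on DNA, had 137 CPM in WT, 109 in SM and 103 in DM, and did not pass (adjusted p = 0.301 and 0.159 in the authors' deposited tables). Nr0b2, the corepressor SHP that is known to restrain HNF4-alpha, fell from a low level of 2.27 CPM in WT to 0.514 in SM and 0.398 in DM, with log2 fold changes of -2.14 (SE 0.49, adjusted p = 0.000266) and -2.51 (SE 0.49, adjusted p = 1.33e-05), as the authors' deposited tables give them. The oxysterol receptor gene Nr1h3 fell, with log2 fold changes of -0.92 (SE 0.21) and -0.82 (SE 0.21). Vdr, the vitamin D receptor, was at -0.71 (adjusted p = 0.0665) in SM and -0.88 (adjusted p = 0.0152) in DM, in the authors' deposited tables. Nr2f2, an orphan receptor of mesenchyme and veins, was at 0.08 and -0.28 and passed in neither deposited table by the authors. The clock receptor Nr1d1 stood at -0.29 (adjusted p = 0.819) in SM and -1.38 (adjusted p = 0.00929) in DM versus WT, with -1.1 (adjusted p = 0.964) in DM versus SM, in the authors' deposited tables.

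**Figure D3:**
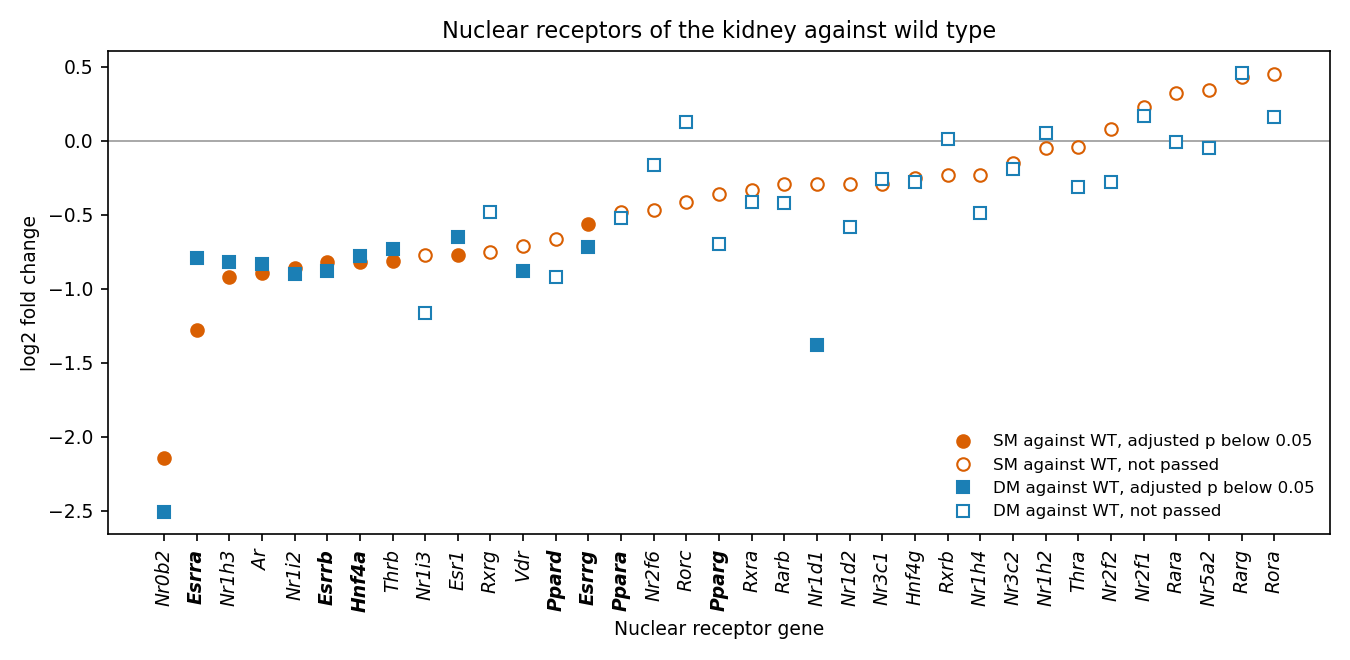
Log2 fold changes of the 7 receptor members (bold) and 28 other nuclear receptors versus WT, in order of the SM value, with circles for SM, squares for DM and filled symbols where the authors' adjusted p was below 0.05. Nr0b2 is lowest in both comparisons, Esrra is next in SM, and 0 receptors passed as higher.

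Of 22 cofactors and upstream kinases 3 fell in SM and 3 in DM versus WT and 0 rose in the authors' deposited tables (medians -0.11 and -0.19). That is 13.6 percent in each, not far from the 9.47 and 8.53 percent of rows with at least 1 CPM called lower, so the count is no result about these genes. The smallest adjusted p belonged to Perm1, a gene known from muscle to be induced by PGC-1 and the estrogen-related receptors, which the tables hold under its older name 2310042D19Rik. It went from 19.2 CPM in WT to 2.93 in SM and 2.17 in DM, with log2 fold changes of -2.71 (SE 0.38, adjusted p = 8.9e-11) and -3.14 (SE 0.38, adjusted p = 7.88e-14), as the authors' deposited tables give them. Sirt3, the mitochondrial deacetylase, was at -1.07 (SE 0.32, adjusted p = 0.00965) in SM and -0.80 (SE 0.32, adjusted p = 0.08) in DM, in the authors' deposited tables. Mtor fell, with log2 fold changes of -0.62 (SE 0.20) in SM and -0.72 (SE 0.20) in DM versus WT in the authors' deposited tables. The corepressor Ncor1 (0.03 in SM, -0.21 in DM) passed in neither, and Pprc1, the third PGC-1 relative, stood at 0.27 and 0.70 (adjusted p = 0.0809 in DM) in the authors' deposited tables.

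Among 17 mitochondrial biogenesis factors 2 fell in SM and 1 in DM versus WT in the authors' deposited tables (medians -0.31 and -0.29). These shares of 11.8 and 5.88 percent lie near the 9.47 and 8.53 percent over rows with at least 1 CPM, so the count is no result about these factors. Mfn2, a mitochondrial fusion protein, fell, with log2 fold changes of -0.67 (SE 0.19) in SM and -0.61 (SE 0.19) in DM, and Polrmt, the mitochondrial RNA polymerase, fell in SM (-0.53, SE 0.19). Opa1, of the inner membrane fusion machinery, was at -0.44 (adjusted p = 0.0851) and -0.46 (adjusted p = 0.0687). Nrf1 (-0.01 in SM, 0.11 in DM), a transcription factor of nuclear genes for mitochondria, did not pass in the authors' deposited tables.

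The target genes of the estrogen-related receptors and PGC-1 were lower in most cases. Of 32 genes 28 fell in SM and 22 in DM versus WT and 0 rose in the authors' deposited tables (medians -0.95 and -0.88). That is 87.5 and 68.8 percent, beside 9.47 and 8.53 percent of rows with at least 1 CPM called lower. The summed level of the 32 genes was 24904 CPM in WT, 12931 in SM and 13852 in DM. Sod2, the mitochondrial superoxide dismutase, fell, with log2 fold changes of -1.15 (SE 0.22, adjusted p = 1.12e-05) in SM and -1.0 (SE 0.22) in DM. Uqcrc1, of respiratory complex III, fell, with log2 fold changes of -1.11 (SE 0.24) and -0.94 (SE 0.23) in the authors' deposited tables. Cox6a1, of the terminal oxidase, fell, with log2 fold changes of -1.21 and -1.17 (SE 0.27 in both). Atp5b, a subunit of the ATP synthase, had 3665 CPM in WT, 1940 in SM and 2049 in DM, with -0.92 (adjusted p = 0.0377) in SM and -0.84 (adjusted p = 0.0667) in DM, in the authors' deposited tables.

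Of the PPAR-alpha target genes a smaller share fell. Of 34 genes 13 fell in SM and 7 in DM versus WT and 0 rose in the authors' deposited tables (medians -0.51 and -0.38). That is 38.2 and 20.6 percent, beside the same 9.47 and 8.53 percent of rows with at least 1 CPM. Acadm, the medium-chain acyl-CoA dehydrogenase, fell, with log2 fold changes of -0.80 (SE 0.26) in SM and -0.74 (SE 0.26) in DM. Acaa1b, a peroxisomal thiolase, fell, with log2 fold changes of -1.41 (SE 0.26) and -0.80 (SE 0.25), and the fatty acid carrier Fabp3 also fell (-1.4 and -1.43, SE 0.25 in both), in the authors' deposited tables. Fabp1, the fatty acid carrier of liver and proximal tubule, was at -3.09 (SE 0.75, adjusted p = 0.000695) and -2.7 (SE 0.72, adjusted p = 0.00293), from 4.72 CPM in WT (3.29 to 6.78). It and Nr0b2 are liver genes too, and the part of the hepatocyte markers in their values was not tested. The abundant transporter and ligase Slc27a2 had 1977 CPM in WT, 1441 in SM and 1502 in DM and passed in neither (adjusted p = 0.416 and 0.518). Txnip, an abundant gene of redox control, stood at 0.64 (adjusted p = 0.131) in SM and 0.23 (adjusted p = 0.761) in DM by the authors' deposited tables. In DM versus SM 0 of the 34 genes passed, with a median of 0.27, where the rows with at least 1 CPM had 0.00. Of the 34, 7 had a log2 fold change below 0. This lean was not particular to the list. The targets of the estrogen-related receptors and PGC-1 had a median of 0.14, with 3 of 32 below 0. The HNF4-alpha list, given next, had 0.11, with 9 of 29 below 0.

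Proximal tubule genes that depend on HNF4-alpha were lower in most cases. Of 29 genes 25 fell and 1 rose in SM versus WT, and 21 fell and 0 rose in DM versus WT, in the authors' deposited tables (medians -1.08 and -0.90). The shares that fell were 86.2 and 72.4 percent, beside the same 9.47 and 8.53 percent of rows with at least 1 CPM. The anion transporter Slc22a6 fell, with log2 fold changes of -1.68 (SE 0.22, adjusted p = 5.27e-12) and -1.5 (SE 0.22) and the phosphate transporter Slc34a1 also fell (-1.43 and -1.33, SE 0.36 in both), in the authors' deposited tables. Gatm, the first enzyme of creatine synthesis, was at -1.82 and -2.0 (SE 0.32 in both), and both values passed. Pck1, the gluconeogenic enzyme that is also in the PPAR-gamma list, was at -1.5 (adjusted p = 0.000603) in SM and -0.91 (adjusted p = 0.0653) in DM by the authors' deposited tables. The gene that rose was the sulfate transporter Slc13a1, named here after its value was seen, which the authors' deposited table gives at 0.63 (SE 0.22, adjusted p = 0.0292).

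Of 15 PPAR-gamma target genes 5 fell in SM and 3 in DM versus WT and 0 rose in the authors' deposited tables (medians -0.74 and -0.80). That is 33.3 and 20 percent, beside the same 9.47 and 8.53 percent of rows with at least 1 CPM. Lipoprotein lipase (Lpl) fell, with log2 fold changes of -1.3 (SE 0.25) and -1.55 (SE 0.26) and the glucose transporter Slc2a4 also fell (-1.54, SE 0.31, and -1.03, SE 0.30). Fabp4, the fatty acid carrier of fat cells and capillaries, was at -0.58 (adjusted p = 0.247) and -0.61 (adjusted p = 0.213) in the authors' deposited tables. Over all 7 lists of partners and targets 0 genes passed in DM versus SM in the authors' deposited table.

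**Figure D4:**
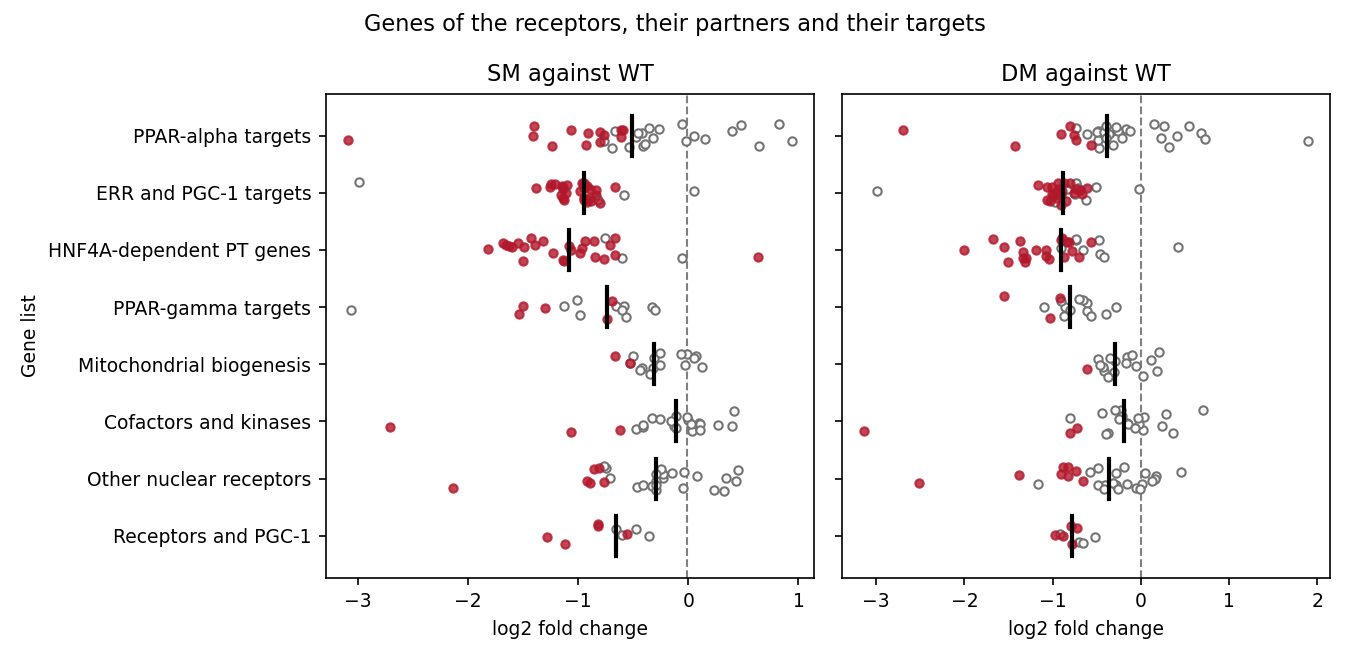
Log2 fold changes versus WT for the 9 genes (bottom) and 7 lists of partners and targets, 1 point a gene, filled where the authors' adjusted p was below 0.05, with the list median (black bar) and the median of rows with at least 1 CPM (dashed line). PT is proximal tubule. The targets of the estrogen-related receptors and the HNF4-alpha list have medians of -0.95 and -1.08 in SM, and the cofactor list has -0.11.

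Markers of segments outside the proximal tubule, where Esrrg is known to act, fell more often than they rose. Of 22 markers 10 fell and 3 rose in SM versus WT and 11 fell and 1 rose in DM versus WT in the authors' deposited tables (medians -0.67 and -0.68). The shares that fell were 45.5 and 50 percent, beside 9.47 and 8.53 percent of rows with at least 1 CPM. The shares that rose were 13.6 and 4.55 percent, beside 7.87 and 7.55 percent of all rows. The DM count that rose is therefore no result about these markers. Umod, of the thick ascending limb, was at -0.31 (adjusted p = 0.688) and -0.25 (adjusted p = 0.789), whereas the anion exchanger Slc4a1 of intercalated cells fell, with log2 fold changes of -2.1 and -1.93 (SE 0.20 in both) and the distal convoluted tubule gene Pvalb also fell (-3.68, SE 0.42, and -2.22, SE 0.38). Slc12a1, the sodium-potassium-chloride cotransporter of the thick ascending limb, had -1.01 (adjusted p = 0.0176) in SM and -0.72 (adjusted p = 0.132) in DM, in the authors' deposited tables. The 3 that rose in SM, named here after their values were seen, are markers of principal cells of the collecting duct, where Pkhd1Cre is known to act. The other principal cell markers of the list, Aqp2 and Aqp3, did not rise. Aqp2 had 280 CPM in WT, 231 in SM and 269 in DM, and Aqp3 had 168, 140 and 156 CPM. The authors' deposited tables gave the sodium channel subunits Scnn1b 1.03 (SE 0.25, adjusted p = 0.000595) and Scnn1g 0.69 (SE 0.20, adjusted p = 0.00578) and the vasopressin receptor Avpr2 0.62 (SE 0.22, adjusted p = 0.037) in SM. In DM Scnn1g passed at 0.65 (adjusted p = 0.0106), while Scnn1b at 0.62 (adjusted p = 0.0772) and Avpr2 at 0.58 (adjusted p = 0.0587) did not, in the same deposited tables by the authors. Whether the values of the members moved with the share of these segments was not tested. The summed level of 12 skeletal and heart muscle markers, tissues rich in estrogen-related receptors, was 7.02 CPM in WT, 4.57 in SM and 5.95 in DM.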

How the data were processed

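RNA of whole kidneys from 10 mice was sequenced after a stranded total RNA preparation, per the labels' protocols. Tools named in the submitters' processing notes are edgeR 3.2.4, Subread 1.4.6, featureCounts, Cufflinks, TopHat2 2.0.12 and bcl2fastq 1.8.4, with mm10, and their roles are not stated. The authors deposited 3 tables of comparisons, 1 row a gene or assembled locus. Per the file headers, the deposited columns are the log2 fold change, the mean log2 CPM, the likelihood ratio score, the p-value and the adjusted p-value. Checked on the files, the deposited p-values were chi-square tails of the score, adjustment was Benjamini-Hochberg over 30431 rows, and the fold changes of DM against SM equalled the difference of the other pair, so the tables were read as 1 fit of all libraries. Groups came from the genotype labels. Each library carries its own number in its title, read here as that of its animal. The libraries are the units of the test. The chi-square p-values take the estimated spread as known, and how the authors estimated it is not stated. The implied coefficient of variation of a gene therefore need not be the spread of that gene between these animals.

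The implied SE (absolute log2 fold change over the square root of the score), 95% intervals, group levels and implied coefficient of variation were computed with Python 3.11.15 and scipy 1.17.1. All are approximate. The implied SE was tested on simulated data of SM against WT. There every gene had the same known dispersion, which is not so here. The WT level was recovered there from fold changes made of the same simulated group means. That recovery could not fail, so it does not check the derived levels. The intervals, the SM and DM levels and the coefficient of variation were not tested, and changes as large as that of Alb were not simulated.

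The members and gene lists were chosen with earlier results of these data known, so the list counts are no independent evidence. From each list, the genes named are the 2 with the highest average CPM and the 2 with the smallest adjusted p in each comparison. Some genes that this rule selects are not reported here. Alternatives were other thresholds, an F distribution, a filter on low values and median-centred fold changes. UTRs came from GENCODE M21, promoters and the miRNA from RefSeq (GRCm38.p6). The promoter of Ppargc1b was not used here.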

Additional observations from a re-analysis of the deposited data

How the results depend on the processing

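Against WT, the count of members called was 5 in SM and 5 in DM. It was 2 in SM (Ppargc1b, Esrra) and 2 in DM (Ppargc1b, Esrrg) at an adjusted p threshold of 0.01, and 0 in SM and 0 in DM with the F distribution. At a threshold of 0.1 it was 5 and 6, with p adjusted over rows with at least 1 CPM 5 and 5, and with median-centred fold changes 4 and 5. In DM against SM it was 0 throughout. Over all rows, 4248 were called in SM against WT and 682 with the F distribution (2775 at 0.01), 4100 in DM against WT and 451 with the F distribution (2596 at 0.01), and 24 in DM against SM, with 0, 7 (at 0.01) and 13 (rows with at least 1 CPM) under those alternatives. Of 135 values of single members 117 stayed on their side of the threshold, 17 lost their call and 1 gained one (Ppargc1a in DM against WT at 0.1). Many of the 117 could not move, since a stricter reading cannot add a call and a looser threshold cannot remove one. All 17 losses fell on the 5 members called in SM and the 5 called in DM, so the 117 are no measure of robustness. Of the 5 alternatives only centring alters fold changes, and by at most 0.01, so none of them tests the direction of a change. No paired analysis was possible because the tables carry no value per animal and the animals of the groups share no number, and leaving out an animal could not be run for the same reason. Depth is unknown, so the implied SE alone limits what could be seen.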

Other observations

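For each member, the 2 genes of the other lists with the closest pair of log2 fold changes against WT were found among 232 genes with at least 1 CPM. The measure is a distance over 3 groups only, and both comparisons share the WT animals, so many genes lie close by. Ppargc1b was nearest to the respiratory chain gene Uqcrc1 and to Sod2 (distance 0.04 to each, log2 scale). Hnf4a was nearest to Acot12 (0.03), an acetyl-CoA thioesterase, and to Cubn (0.04), the endocytic receptor of the proximal tubule. Esrrb was nearest to Nr1i2 (0.04), the xenobiotic receptor PXR, and to Atp5a1 (0.08). Esrrg was nearest to Mtor (0.05) and Lipe (0.06), and Ppargc1a to the potassium channel Kcnj1 (0.03) and the fatty acid transporter Cd36 (0.04). Ppard was nearest to Acsl1 and Vdr (0.06 to each), Pparg to Pnpla2 (0.06) and Atp6v0d2 (0.07), and Ppara to Opa1 (0.07) and Prkaa2 (0.08). Esrra had the most distant nearest genes, Slc22a2 (0.09) and Acaa2 (0.12).

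The promoters of 8 members (15 windows, 250 bases before to 50 after a start site, RefSeq, GRCm38.p6) were searched on both strands. None held the estrogen-related receptor word TCAAGGTCA, the receptor repeat AGGTCANAGGTCA, the HNF4 word CAAAGTCCA or the cAMP response word TGACGTCA, which 0.423, 0.0396, 0.475 and 1.79 percent of all 32851 promoters held. The shorter word AGGTCA, which is contained in the first pair of words, was in 2 of the 15 windows, both of Pparg, and in 16.3 percent of all promoters. These counts say only that the letters are or are not in these windows.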
